A study of Mus musculus with 2 samples.

Results

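The regulators that decide whether an activated B cell stays a B cell or becomes an antibody-secreting plasma cell were followed on expression arrays of Ecm1-deficient and wild-type T helper 2 (Th2) cells. They were the 10 genes Prdm1, Xbp1, Irf4, Bhlha15, Pou2af1, Pax5, Bach2, Bcl6, Sdc1 and Eaf2, taken as every probe set that the platform annotation gives to 1 of them alone. All 10 were found, with 22 probe sets, among 18193 named genes and 45101 probe sets. The genes were picked with their values on these arrays known, so every count and rank of them is a description and none carries a test.

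The knockout group (labelled Th2 KO) was Th2 cells of Ecm1 knockout mice, and the control group (Th2 WT) was Th2 cells of wild-type mice, both on the C57BL/6 strain, described as female and grown to 6 weeks. Ecm1 encodes a secreted matrix glycoprotein. In both groups spleen cells were freed of red cells and taken with an anti-CD4 antibody on magnetic columns, then cultured for 4 days. The medium held 10 ng/ml of IL-4 (the label garbles this unit) and 10 µg/ml each of antibodies to IL-12 and IFN-γ, and the cells were stimulated through CD3 (3 µg/ml of plate-bound antibody) and CD28 (2 µg/ml). Each group had 1 array, the number of animals it stands for is not stated in what was used here, and the design text calls the starting cells naive while the isolation step selected on CD4 only.

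PAX5 keeps B cells in their lineage, BCL6 runs the germinal centre reaction and BACH2 delays the exit from it. IRF4 and BLIMP-1 (the product of Prdm1) switch that programme off, and XBP1 and MIST1 (the product of Bhlha15) then build the secretory machinery of the plasma cell. Several of these proteins also work in CD4 T cells, where IRF4 and BLIMP-1 act in effector cells, BCL6 in follicular helper cells and BACH2 in naive and memory cells.

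Values are linear probe-set signals. A signal under the median of its array (65.5 in the knockout, 69.2 in wild type) was treated as at the floor. Differences are log2 knockout minus wild type, centred by the median difference over the 20834 probe sets that reach it in both groups (-0.10), and a gene takes the value of the probe set with the highest mean log2 signal. With 1 array per group there was no test and no SD between replicates. The only error available was the SD between 2 probe sets of a gene, 0.36 on the log2 scale over 4657 genes, which does not hold the variation between mice, cultures or arrays. The labels were checked on Ecm1, which read 19.3 (knockout) and 29114.7 (wild type), the direction they give. The Y-linked Eif2s3y read 2214.4 (knockout) and 25.0 (wild type, under the floor), although the labels describe females. With 1 array per group, a difference in the sex of the mice cannot be told apart from genotype in any value below. The sample descriptions name liver, and all 8 hepatocyte genes present stayed under the floor in both groups.

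For 9 of the 10 fate genes both arrays gave a signal that reached the floor (called measured below). Of these, 5 were higher in the knockout by 2-fold or more, 1 was lower by as much and 3 lay within 2-fold. The 5 higher genes were Eaf2, Sdc1, Bhlha15, Irf4 and Pou2af1, the lower gene was Bach2, and Prdm1, Xbp1 and Bcl6 lay within 2-fold. Over all 10144 genes measured on both arrays, 725 (7.15%) were higher by 2-fold or more and 451 (4.45%) lower by as much, a split of 61.6% higher that was 49.0% without centring. The median difference was 1.87 over the 9 genes and 0.04 over all genes. Since the genes were picked by these differences, nothing is read from that contrast. Among their probe sets 17 were measured, 9 of them higher by 2-fold or more, 2 lower by as much and 6 within 2-fold, beside 7.22% higher and 4.68% lower over all named probe sets.

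**Figure D1:**
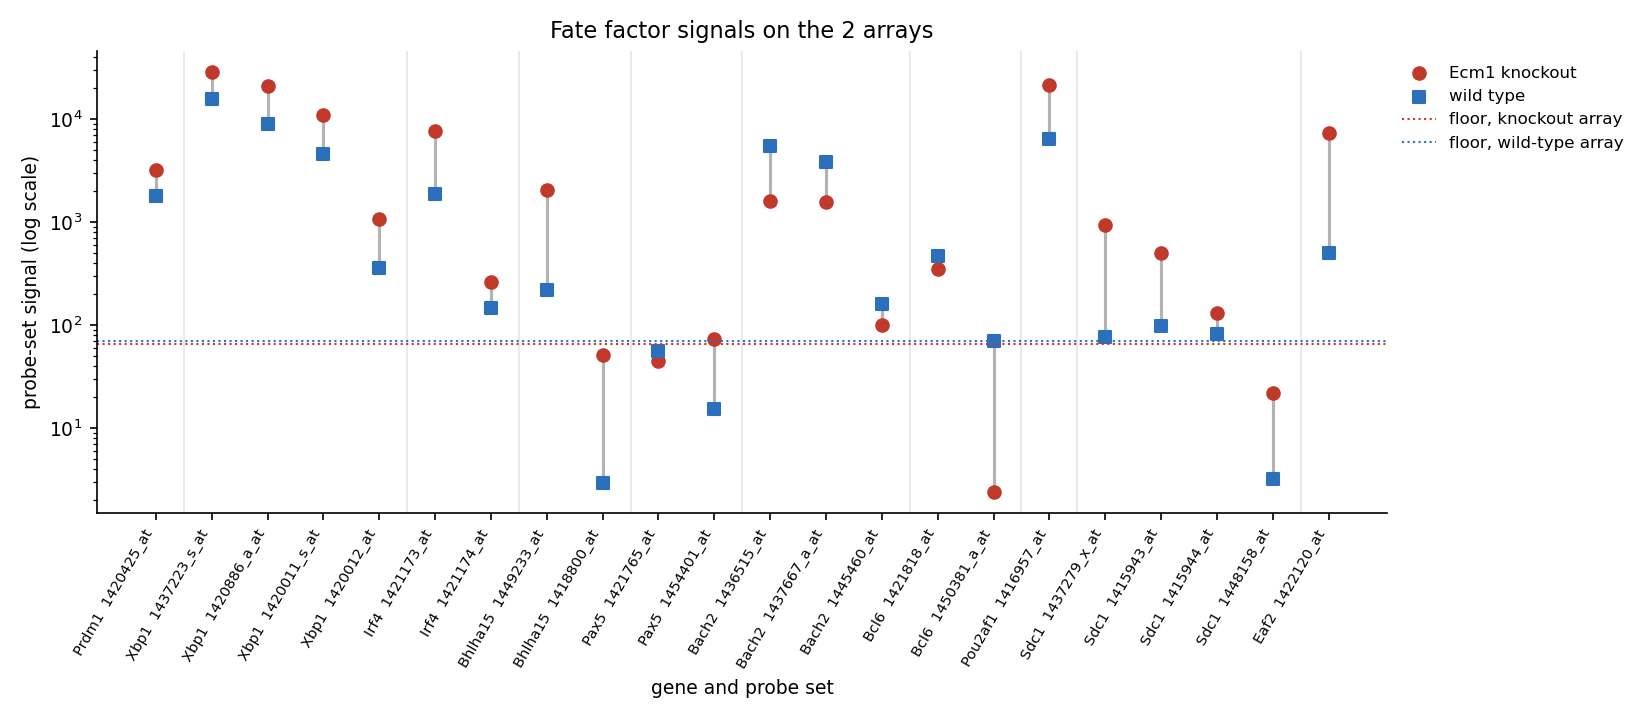
Signal of each of the 22 probe sets of the 10 fate genes (log axis) on the knockout array (circles) and the wild-type array (squares), with each array's floor dotted. The circle lies above the square in every probe set of Prdm1, Xbp1, Irf4, Bhlha15, Pou2af1, Sdc1 and Eaf2, and below it in all 3 of Bach2.

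The 4 plasma cell transcription factors all read higher on the knockout array. Prdm1, whose product BLIMP-1 represses B cell genes, has 1 probe set (1420425_at), which read 3186.0 (knockout) and 1777.9 (wild type). The knockout signal was thus the higher, at a log2 difference of 0.94 (1.92-fold), just under 2-fold, and 8.24% of all genes measured were at least as high. Irf4, the dose-sensitive factor that antigen receptors induce in B and T cells, read 7749.1 and 1891.7 in 1421173_at, a log2 difference of 2.14 (4.40-fold). Its other probe set, 1421174_at, read 259.5 and 144.6, a difference of 0.95. Both probe sets of Irf4 pointed the same way, and only the first passed 2-fold.

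Xbp1 encodes the factor that the endoplasmic reticulum stress sensor IRE1 activates by splicing its messenger. The probe sets, named here by signal from high to low, read 28935.4 (knockout) and 15838.9 (wild type) (1437223_s_at), 21241.0 and 8964.8 (1420886_a_at), 10926.1 and 4597.8 (1420011_s_at), and 1063.9 and 359.2 (1420012_at). All 4 were higher in the knockout, at 0.97, 1.35, 1.35 and 1.67, so 3 of the 4 passed 2-fold and the one that stands for the gene did not. As the mean of its probe sets Xbp1 was at 1.34. Differences were also narrower over all genes at the top of the signal range. Of 149 genes with a mean log2 signal of 14 or more, where the first Xbp1 probe set lies, 4 (2.68%) were at least 2-fold higher, and the SD of their differences over genes was 0.40 against 0.66 for 1011 genes between 12 and 14. The part of this narrowing in the value of Xbp1 was not tested. Whether these probe sets tell the spliced from the unspliced messenger was not examined.

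Bhlha15, whose product MIST1 enlarges the secretory apparatus of plasma cells and exocrine glands, read 2070.1 (knockout) and 217.7 (wild type) (1449233_at). That is 10.21-fold higher after centring (log2 3.35), and 7 of the 10144 genes differed more in that direction. The other probe set, 1418800_at, read 51.5 and 2.9, under the floor on both arrays, and gives no fold.

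Sdc1, the heparan sulphate proteoglycan known as CD138 that marks plasma cells, went from wild-type signals near the floor to clear signal in the knockout. The probe set 1437279_x_at read 928.7 (knockout) and 76.9 (wild type) (log2 3.70). The next, 1415943_at, read 501.1 and 98.3 (2.45), and 1415944_at read 131.6 and 81.6 (0.79). All 3 were higher in the knockout, but their sizes ran over 2.90 log2 units, the widest range among the fate genes with several measured probe sets. The fourth, 1448158_at, read 21.6 and 3.2, under the floor on both. The suffix _x marks probes that may also bind other transcripts, and without such probe sets and those ending in _s_at Sdc1 stood at 2.45.

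Eaf2, which encodes a partner of the ELL elongation factors found in the B lineage, read 7304.6 (knockout) and 505.9 (wild type) (1422120_at). It was 15.51-fold higher after centring (log2 3.95), the second of 10144 genes from the top. Pou2af1 encodes OBF1, the coactivator that octamer-binding factors need in B cells. It read 21635.1 and 6352.6 (1416957_at), a log2 difference of 1.87 (3.66-fold). Both genes have a single probe set, so no second measurement on these arrays bears on them.

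On the B cell and germinal centre side Bach2 was lower, Bcl6 lay within 2-fold and Pax5 was not measured on both arrays. Bach2 read 1591.8 (knockout) and 5500.9 (wild type) (1436515_at, log2 -1.69), 1557.1 and 3837.2 (1437667_a_at, -1.20), and 101.0 and 158.8 (1445460_at, -0.55). All 3 probe sets were lower in the knockout and 2 of them passed 2-fold. By the first of them alone, the one of highest signal, the gene was 63rd of 10144 from the bottom. Bcl6 read 346.4 (knockout) and 468.9 (wild type) (1421818_at, -0.33), inside the spread between probe sets of a gene. Its other probe set, 1450381_a_at, read 2.4 and 70.1, where only the wild-type signal reached the floor, by so little that no fold follows. Pax5 was near or under the floor in both groups, at 44.6 and 56.2 in 1421765_at and at 72.9 and 15.2 in 1454401_at. Only that last knockout signal exceeded its floor, and no direction was drawn for Pax5.

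**Figure D2:**
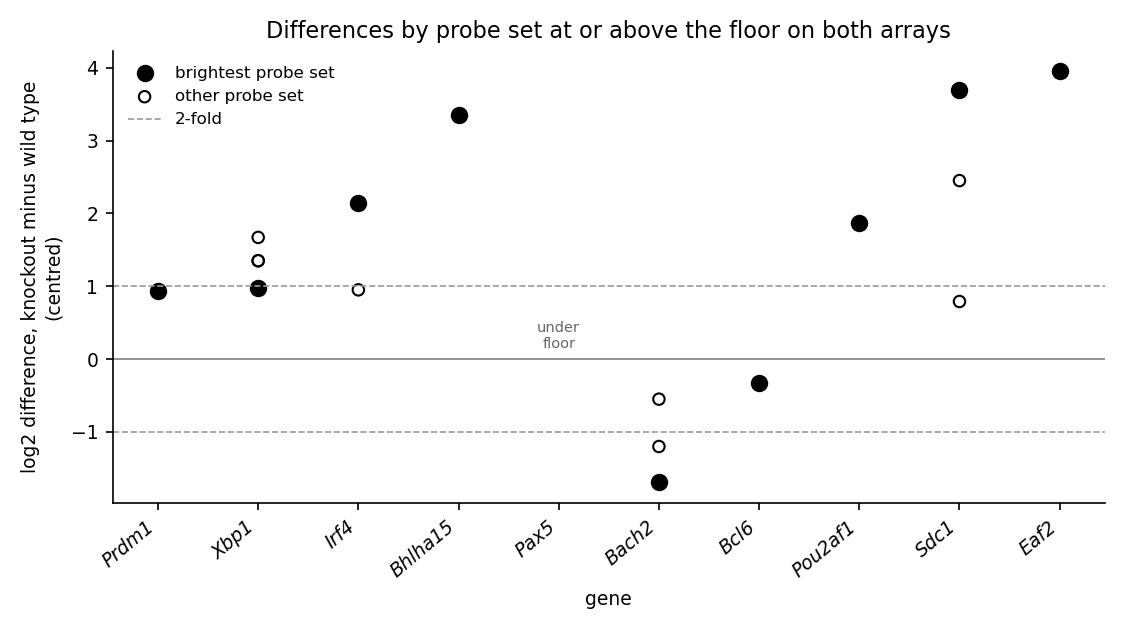
Log2 difference (knockout minus wild type, centred) of each measured probe set, by gene, with the probe set of highest signal filled and 2-fold marked by dashed lines. Bach2 and Bcl6 lie below 0, Pax5 has no such probe set, and the probe sets of the other 7 genes lie between 0.79 and 3.95.

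Because one scaling factor per array cannot alter it, the gap between the differences of 2 genes was also taken, for each plasma cell factor against Bach2 and Bcl6. It was 2.63 for Prdm1 against Bach2, 2.66 for Xbp1, 3.82 for Irf4 and 5.04 for Bhlha15, in log2 units. The SD that the spread between probe sets gives such a gap is 0.51. Taking every pair of measured probe sets, the gap to Bach2 ran from 1.49 to 2.63 for Prdm1, from 1.52 to 3.36 for Xbp1, from 1.50 to 3.82 for Irf4 and from 3.90 to 5.04 for Bhlha15. The gaps to Bcl6 were smaller, at 1.28 for Prdm1, 1.31 for Xbp1, 2.47 for Irf4 and 3.69 for Bhlha15. The plasma cell factors thus stood above both rivals in every pair of probe sets, which is a description since the genes were picked on these arrays.

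**Figure D3:**
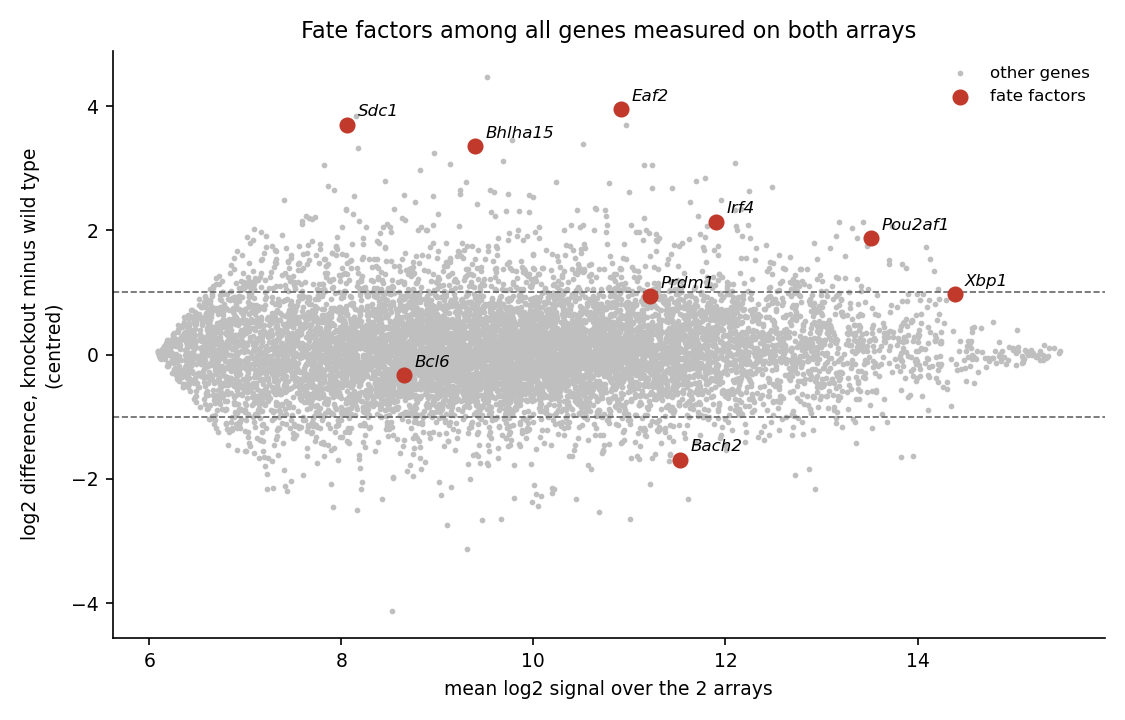
Log2 difference (knockout minus wild type, centred) against the mean log2 signal of the 2 arrays for the 10144 genes measured on both, fate genes in red, 2-fold dashed. Eaf2 (3.95), Sdc1 (3.70) and Bhlha15 (3.35) lie at the upper edge of the cloud, Bach2 (-1.69) at its lower side, and Bcl6 (-0.33), Prdm1 (0.94) and Xbp1 (0.97) between the lines.

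The bases just before the start of 5 fate genes are shown with the short motifs found in them, because each holds a match within 120 bases of a start. Bcl6, whose matches lie before different starts, is described by its motifs only. They come from RefSeq (GRCm38.p6), 120 bases each, on the gene's own strand. Capitals mark TGACGTGG (the unfolded protein response element that XBP1 binds) and CCACG or its reverse complement (part of the endoplasmic reticulum stress element). They also mark TGANTCA, where N is any base, a loose form of the AP-1 site used by BATF and BACH factors. The last is GGAA followed after 2 bases by GAAA on either strand (the composite site of ETS factors with IRF4 or IRF8).
Pou2af1 (chr9:51213570-51213689, plus strand): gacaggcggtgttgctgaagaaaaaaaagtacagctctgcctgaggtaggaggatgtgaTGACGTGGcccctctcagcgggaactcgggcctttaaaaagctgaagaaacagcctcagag
Prdm1 (chr10:44458749-44458868, minus strand): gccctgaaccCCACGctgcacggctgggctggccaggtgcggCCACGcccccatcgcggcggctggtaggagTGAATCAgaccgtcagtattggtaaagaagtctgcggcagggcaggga
Irf4 (chr13:30749113-30749232, plus strand): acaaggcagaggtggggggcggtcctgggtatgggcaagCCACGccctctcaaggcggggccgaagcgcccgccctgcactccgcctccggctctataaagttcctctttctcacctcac
Bhlha15 (chr5:144190166-144190285, plus strand): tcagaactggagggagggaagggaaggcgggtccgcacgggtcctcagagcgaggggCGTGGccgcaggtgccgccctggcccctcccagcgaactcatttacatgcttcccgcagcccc
Bach2 (chr4:32417315-32417434, plus strand): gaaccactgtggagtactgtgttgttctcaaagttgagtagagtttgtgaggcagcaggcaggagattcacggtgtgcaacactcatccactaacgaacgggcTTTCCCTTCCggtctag

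All 10 genes had a window of 250 bases before a start, 13 windows in all, and 12 motifs were searched on both strands in them and in 32851 windows of all genes. Of the fate genes Pou2af1 alone held TGACGTGG, which 0.563% of all windows hold. It lies 61 to 54 bases before the start, overlaps a CCACG match on the other strand, and had been noticed before the search. CCACG stood in 6 of the 13 windows, those of Prdm1, Irf4, Bhlha15, Bcl6, Pou2af1 and Sdc1, and in 28.3% of all windows. Prdm1 held TGANTCA in the form TGAATCA (6.75% of all windows hold TGANTCA with any middle base), and Bach2 and Bcl6 held the ETS and IRF composite (2.30%). The other 8 motifs had no match in these windows: the full stress element, CCAAT and CCACG 9 bases apart (0.113% of all windows), TGACGTCA (1.55%), the MAF recognition element (0.134%), the IRF element of GAAA repeated after 2 bases (2.98%), the octamer ATGCAAAT (1.60%), the BLIMP-1 consensus core (0.207%) and the E-boxes CAGCTG (13.0%) and CATATG (3.46%). A match is a run of letters and not a measured binding site.

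Genes that XBP1 induces along the secretory pathway were higher in the knockout. Of 42 measured on both arrays, 30 were higher by 2-fold or more, none lower by as much and 12 within 2-fold. All 42 lay above 0 (with the mean over probe sets Sec11a did not), and the list median was 1.44. Beside this and every list below stand the shares over all genes, 7.15% higher and 4.45% lower. The lists were chosen with earlier results of these data known, so their counts and medians are descriptions. Kdelr3 (320.6 and 55.6) had a bound of 2.31, under the floor in wild type only. Creld2, a folding protein induced by endoplasmic reticulum stress, read 8471.7 (knockout) and 1303.2 (wild type) (2.80). Sdf2l1, a chaperone cofactor, read 9985.8 and 2100.2 (2.35). Wfs1, a membrane protein of the endoplasmic reticulum, read 576.1 and 122.4 (2.34), and the disulphide isomerase Pdia6 read 9501.2 and 2023.1 (2.33). All 4 knockout signals were more than 4 times the wild-type signals.

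Other genes of the plasma cell programme were higher as well, with exceptions. Of 23 measured on both arrays, 15 were higher by 2-fold or more, 2 lower by as much and 6 within 2-fold (list median 1.53 with Tnfrsf17, under the floor in wild type only, at its bound of 1.81, and 1.06 without probe sets ending in _x_at or _s_at). The list shares Creld2, Edem1 and Sec11c with the XBP1 list, 10.0% of it. Fkbp11, a folding enzyme of secretory cells, read 2342.7 and 290.5 (3.11), Lman1, the cargo receptor for export to the Golgi, 6795.8 and 1140.6 (2.68), and Ell2, which steers antibody messengers to the secreted form, 11748.3 and 2019.0 (2.64). The 3 other measured probe sets of Lman1 were at 0.75, 1.91 and 3.30. The 2 lower genes, the integrin Itga4 (-1.10) and the chemokine receptor Cxcr4 (-1.06), help plasma cells lodge in bone marrow and are also made by T cells. They were named after their values were seen.

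The ELL and EAF family did not move as one. Of 8 relatives and partners of Eaf2 measured, Ell2 alone was at least 2-fold higher, none was at least 2-fold lower and 7 were neither, with a median of -0.04. Eaf1, the closest relative of Eaf2, was at 0.34 and Ell at -0.15, both named after their values were seen. Among the syndecans Sdc4 was at 1.07, with 0.49 in its other probe set, Sdc3 at -0.07, and Sdc2 was under the floor on both arrays. Sdc2 and Sdc3 are the remaining members of that family.

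Of 29 other regulators of the switch, 5 were higher by 2-fold or more, 2 lower by as much and 22 within 2-fold, with a median of -0.04. The higher ones included Ell2, the E protein gene Tcf4 (2899.9 and 735.6, 2.08) and Mef2c (3300.6 and 905.5, 1.97), a B cell and myeloid factor. All 5 measured probe sets of Tcf4 lay between 2.02 and 2.52, and those of Mef2c between 1.28 and 1.97. Klf2, a quiescence factor of B and T cells, was lower at 1350.2 and 7282.1 (-2.33). The remaining ones past 2-fold, Spi1 (1.51), Mitf (1.20) and Zbtb20 (-1.10), were named after their values were seen.

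Genes that the plasma cell switch turns off in B cells were mostly not lower. Of 18 PAX5-activated B cell identity genes measured on both arrays, 7 were higher by 2-fold or more, none lower by as much and 11 within 2-fold, 17 lay above 0, and the median over the 18 was 0.85. The adaptor Blnk read 7189.3 (knockout) and 1400.0 (wild type) (2.46), the kinase Btk 890.3 and 231.1 (2.05), the kinase Syk 1977.9 and 576.0 (1.88) and the receptor chain Cd79b 10153.2 and 4493.9 (1.28). Of 19 genes that BLIMP-1 represses in the B lineage, 6 were higher by 2-fold or more, 2 lower by as much and 11 within 2-fold (median 0.78). These lists share 11 genes, 52.4% of the first and 55.0% of the second. The 2 lower genes of the BLIMP-1 list, Klf2 and the sphingosine-1-phosphate receptor S1pr1 (540.7 and 2553.1, -2.14), are also on the naive and memory T cell list.

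Germinal centre genes lay on both sides of 0. Of 12 measured on both arrays 2 were higher by 2-fold or more, 1 lower by as much and 9 within 2-fold (median 0.36 over these 12). In addition Ccdc88a (219.4 and 54.7) and Plxnb2 (174.1 and 68.6) were under the floor in wild type only, with bounds of 1.77 and 1.43, and with them the list median was 0.50. They were named after their values were seen. Mef2b, a transcription factor upstream of Bcl6, read 459.2 and 133.4 (1.89), the uracil glycosylase Ung 738.8 and 368.6 (1.11), and the death receptor Fas 361.8 and 858.6 (-1.14).

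Genes of the T cell states in which these factors act were also followed. Of 21 effector T cell genes linked to BLIMP-1 and IRF4, 2 were higher by 2-fold or more, 2 lower by as much and 17 within 2-fold (list median -0.20). The cytokine Il13 read 240.6 and 69.6 (1.89), near the floor in wild type, and the adhesion receptor Cd44 8636.9 and 3780.9 (1.29), while the inhibitory receptor Lag3 read 140.8 and 626.7 (-2.05) and the factor Bhlhe40 1133.0 and 3278.0 (-1.43). Of 18 naive and memory T cell genes linked to BACH2, none was at least 2-fold higher, 7 were at least 2-fold lower and 11 neither (median -0.82). The fall was not particular to this list, since of the 12 T cell markers given below 6 were at least 2-fold lower (median -1.0). Cd27, a costimulatory receptor, read 660.0 and 4087.7 (-2.53), and the IL-7 receptor Il7r 6173.7 and 17809.5 (-1.43, and -2.59 in its other probe set). Of 14 follicular helper genes, 1 was higher by 2-fold or more, 3 lower by as much and 10 within 2-fold (list median -0.38). The lower ones were the purine receptor P2rx7 (790.1 and 3061.6, -1.85), the SLAM adaptor Sh2d1a (1512.7 and 4387.8, -1.43) and the cytokine Il21 (1446.9 and 3555.3, -1.19), and the higher one was the follicle-homing receptor Cxcr5 (1026.1 and 351.4, 1.65), which B cells also make.

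**Figure D4:**
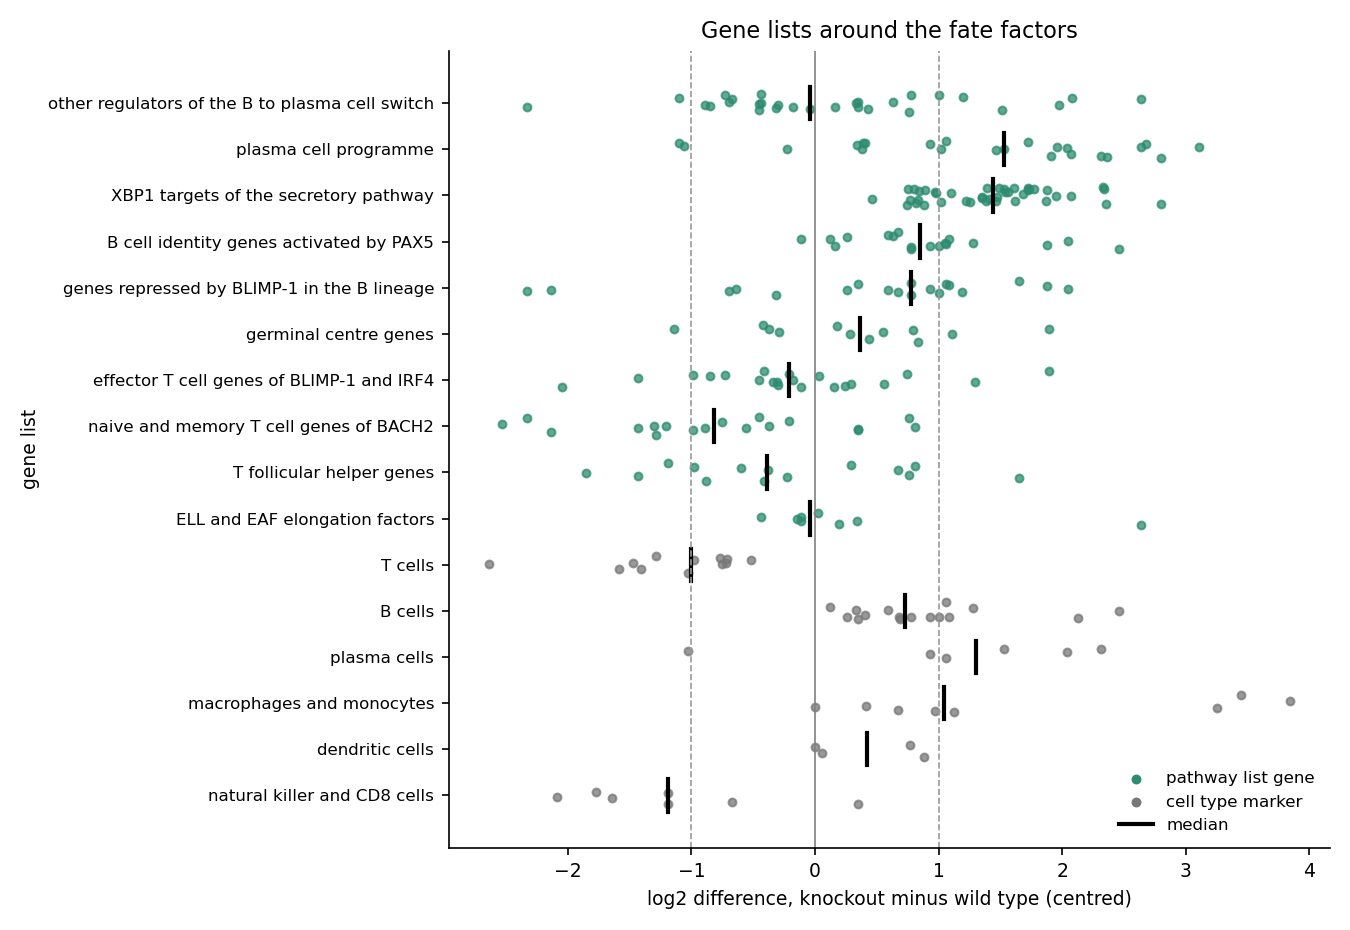
Log2 difference (knockout minus wild type, centred) of the measured genes in each list with at least 4 such genes, with the median over these genes as a bar (pathway lists green, cell type markers grey, 2-fold dashed). The 42 XBP1 targets all lie above 0 and the 12 T cell markers all below it.

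Markers of cell types moved along with the fate genes. All 16 B cell markers measured were higher in the knockout in their probe set of highest signal (15 of 16, Pou2f2 excepted, without those ending in _x_at or _s_at), 5 of them at least 2-fold (median 0.73), and their summed signal came to 99065.1 (knockout) and 56658.8 (wild type). None of the 16 was under the floor on either array, so signal of B cell genes was present in both cultures. The list shares 11 genes with the PAX5 list, 61.1% of it. Ighm, the heavy chain of IgM, read 37288.9 and 30437.8 (0.40) in its probe set of highest signal, the light chain Igk 22432.0 and 5485.9 (2.13), and Ms4a1, which encodes CD20, 9420.5 and 6290.0 (0.69). Other probe sets of Ighm ran from -0.09 to 6.42 and of Igk from -1.09 to 2.77. Probe sequences were not examined, and the part of likeness between antibody genes in this spread was not tested.

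The plasma cell markers outside the 10 genes are mostly the programme genes given above, with 7 of the 8 (87.5%) on both lists, so they are no second measurement. Of 6 measured on both arrays, 4 were higher by 2-fold or more, 1 lower by as much and 1 within 2-fold (median 1.30, and 1.53 with Tnfrsf17 at its bound, summed signal 83985.1 and 40323.2). Mzb1, an antibody-folding chaperone, read 29480.0 and 10930.8 (1.53), the joining chain Jchain 26366.0 and 13593.4 (1.06), and the IgA heavy chain Igha 19969.5 and 5229.9 (2.04). The lower one, Cd28, is on the T cell list too and is the marker not on the programme list.

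All 12 T cell markers were lower in the knockout, 6 of them at least 2-fold (median -1.0, summed signal 57718.0 and 114331.4). The receptor chains Cd3d (15919.3 and 24487.0, -0.52) and Cd3g (9656.3 and 17049.7, -0.72) and the adhesion receptor Cd2 (8099.9 and 14245.6, -0.71) gave clear signal on both arrays. The 12 markers ran from -2.64 to -0.52. Cd4, on whose product the cells were selected, read 932.2 and 3022.3 (-1.59) and was named after its value was seen. Set against these lists by probe sets of highest signal, Bach2 lay 0.69 below the T cell median (-0.69), with 11 of the 12 T cell markers less low. From the B cell median it lay at -2.42. The other Bach2 probe sets were at -1.20 and -0.55. With the mean over probe sets, Bach2 and the T cell median were both at -1.14, so no fall of Bach2 beyond the T cell markers is read from this. Prdm1 lay 0.21 and Xbp1 0.24 above the B cell median, each with 6 of 16 B cell markers at least as high. Irf4 lay 1.41 and Pou2af1 1.14 above it, and Bhlha15, Sdc1 and Eaf2 2.62, 2.97 and 3.22 above it, higher than every B cell marker as read by its probe set of highest signal. The highest probe set of Ighm (6.42) exceeded all of the last 3 genes, and the next (3.45) exceeded Bhlha15. Against the plasma cell median of 1.53 (with Tnfrsf17 at its bound, and 1.3 without it), Prdm1 lay at -0.59 and Xbp1 at -0.56. Each had 4 of the 6 plasma cell markers measured on both arrays at least as high. The other probe sets of Xbp1 were at 1.35, 1.35 and 1.67. Irf4 lay 0.61 and Pou2af1 0.34 above the median of 1.53, and Bhlha15, Sdc1 and Eaf2 lay 1.82, 2.17 and 2.42 above it. These places also hold for the probe set of highest signal only. The other measured probe sets were at 0.95 for Irf4, and at 2.45 and 0.79 for Sdc1. With the mean over probe sets Irf4 was at 1.54 and the plasma cell median at 1.53. In such bulk cultures, more cells of a type and more messenger per cell cannot be told apart, and the part of these cell types in the values of the fate genes was not tested.

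Other cell types also differed. Of 8 measured macrophage and monocyte markers, 4 were higher by 2-fold or more and none lower by as much (median 1.04, summed signal of the list 10259.0 and 4807.9). Another 6 were under the floor in wild type only, of which Msr1 (170.5 and 50.1) and C1qb (146.2 and 61.3) had bounds past 2-fold, 1.40 and 1.18, and Mrc1, C1qa, C1qc and Fcgr1 had bounds between 0.08 and 0.26. With these at their bounds the list median was 0.82, and it was 1.83 with the floor at the 70th percentile and 1.34 with no floor. Itgam, Marco and Cd163 were under the floor on both arrays. Lyz2 read 2796.2 and 275.5 (3.45), Arg1 1484.4 and 167.7 (3.25) and Ctsd 3151.0 and 3377.1 (0.00). Chil3, named after its value was seen, read 1039.5 and 78.0 (3.84), near the floor in wild type. Its difference was larger than those of Sdc1 (3.70) and Bhlha15 (3.35), and that of Lyz2 was larger than that of Bhlha15. Of 7 natural killer and CD8 markers 5 were lower by 2-fold or more and none higher by as much (median -1.19, and -1.28 with Klrk1, under the floor in the knockout only, at its bound of -1.37, summed signal 10370.2 and 32945.9), with Gzma at 8692.4 and 29033.8 (-1.64), Cd8b1 at 541.0 and 1326.0 (-1.19) and Nkg7 at 219.1 and 804.9 (-1.77). Of 4 dendritic cell markers none passed 2-fold (list median 0.42, and 0.80 with the floor at the 70th percentile and 0.81 with no floor), with Bst2 at 0.77, Batf3 at 0.88 and Itgax at 0.06. Neutrophil markers gave 1 gene measured on both arrays, Mmp8 (299.6 and 97.9, 1.72), with Ngp and S100a8 under the floor in wild type.

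Genes whose signals lay nearest to those of Prdm1 and Bach2 were sought by distance in log2 signal, which rests on 2 arrays only. For Prdm1 they were Gfpt1 (3150.3 in the knockout and 1778.0 in wild type), Rwdd4a (3245.6 and 1764.7) and Gadd45g (3187.3 and 1727.0), and 252 genes lay within 0.5 log2 units of it. For Bach2 they were Lyst (1607.6 and 5452.6), Trib2 (1551.3 and 5702.1) and Als2cl (1507.9 and 4972.9), and 27 genes lay within 0.5.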

How the data were processed

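One Affymetrix mouse array per group was used, labelled from 3 µg of total RNA with the one-cycle assay per the labels' protocols. The authors deposited linear signal intensity values, 1 per probe set and array; their summarisation software: not given in the sources used here. Both arrays share 1 mean (500.0) over the middle 96% of signals, a global scaling, so a rise in transcripts within that range lowers the other values. The size of such an effect here was not tested. By the platform annotation 34945 probe sets had 1 symbol, 932 several, 9160 none, and 64 were controls, left out of the centring. The files name no genome build. Promoter sequences are RefSeq's (GRCm38.p6), matched by symbol for all 10 genes.

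From these values log2 differences, floors and 2-fold counts were computed as the results state, in Python 3.11.15 with numpy 2.4.6, pandas 2.3.3 and statsmodels 0.14.6. Genes under the floor on 1 array enter list medians at the floor, and those under it on both are left out. The number of arrays limits the precision. The members and the gene lists were chosen with earlier results of these data known. Named were all members, up to 4 genes past 2-fold with the largest difference in each of 11 pathway lists, and the 3 of highest signal in each of 8 marker lists (none of the hepatocyte genes reached the floor). The 8 alternatives were no centring, quantile normalization, loess (span 0.3), a floor at the 70th percentile, no floor, the mean over probe sets, no _x_at or _s_at probe sets and a pseudocount of 32. The procedure was tested on simulated data.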

Additional observations from a re-analysis of the deposited data

How the results depend on the processing

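No paired analysis was possible because there was a single array a group. With the floor at the 70th percentile, 3 fate genes were at least 2-fold higher, since Bhlha15 and Sdc1 then had only bounds (2.82 and 1.66, still past 2-fold), and over all genes 416 were higher and 285 lower. With no floor, which lets in signals at noise level, 2818 genes were higher and 2316 lower, and Pax5 was at -0.25. Without probe sets ending in _x_at or _s_at, 6 fate genes were at least 2-fold higher, Xbp1 joining at 1.35. The plasma cell programme median was then 1.06, and the gaps of Xbp1 were 3.03 to Bach2 and 1.68 to Bcl6. With the mean over probe sets, 4 fate genes were higher (Xbp1 at 1.34 among them, Bhlha15 and Sdc1 with bounds of 2.34 and 1.57), and the gaps to Bach2 were 2.09 for Prdm1 and 2.69 for Irf4. The cause of the shifts in gaps is the choice of probe sets by construction. Bach2 was at least 2-fold lower under all 8 alternatives, from -1.14 to -1.82, and was the 1 such fate gene measured on both arrays. With the mean over probe sets Bcl6, then under the floor in the knockout only, had a bound of -1.37, also past 2-fold. Prdm1 stayed under 2-fold under all of them (0.84 to 0.94). Of the other values, none changed sign after passing 2-fold. Signal near or under the floor limits Sdc1, Pax5 and the second probe sets of Bcl6 and Bhlha15.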

Other observations

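Agreement between probe sets of one gene was counted over all genes as a yardstick for the fate genes. Of 305 genes whose probe set of highest signal was at least 2-fold higher in the knockout, and which had a second measured probe set, that second one passed 2-fold in the same direction in 177 (58.0%). For 173 genes at least 2-fold lower it did so in 91 (52.6%). Among the fate genes the second probe set passed 2-fold in the same direction for Sdc1 and Bach2 and did not for Irf4. The third measured ones, of Sdc1 (0.79) and Bach2 (-0.55), did not pass 2-fold. Bhlha15, Pou2af1 and Eaf2 had no second measured probe set. All these probe sets read the same 2 arrays, so their agreement does not bear on the difference between groups.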
